A study of Homo sapiens with 18 samples.

Results

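The 38 genes described here encode the folding machinery of the endoplasmic reticulum (ER) and the unfolded protein response that regulates it. They were taken by symbol from the 47021 genes of a poly(A) RNA count table, in which each symbol was found in exactly 1 row. By role, 5 encode sensors or transcription factors, 11 chaperones and their cofactors, 8 disulfide enzymes, 11 proteins of ER-associated degradation (ERAD), and 3 proteins of the translocon. The first group is called sensors in the counts below. It holds the sensor genes ATF6, ERN1 and EIF2AK3 and the transcription factor genes XBP1 and CREB3L2. All 38 passed the filter on low counts, as did 14732 genes of the table.

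All libraries came from DLD1 cells, an established line of human colorectal adenocarcinoma, grown in DMEM with serum, infected with lentivirus and selected with puromycin at 10 µg/ml. Control cells carried the guide sgC and are labelled wild type. The other groups are labelled ZNF692 knockout and carried guide 1 (sgZ1) or guide 3 (sgZ3) against ZNF692, a gene for a zinc-finger protein. Each group had 3 poly(A) libraries, 9 of the 18 libraries of the series, and the ribosomal RNA libraries were not analysed here. The labels do not say whether the libraries of a group came from separate cultures or whether a line was a clone. The p-values therefore measure the spread between these libraries, which may be technical.

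Proteins that enter the secretory pathway cross the ER membrane through the translocon, fold with the help of chaperones, and form disulfide bonds with the help of oxidoreductases. Proteins that fail to fold are drawn back into the cytosol and degraded, the route known as ERAD. When unfolded proteins build up, the membrane sensors ATF6, IRE1 (the product of ERN1) and PERK (the product of EIF2AK3) signal to the nucleus and to the ribosome, and ATF6 and spliced XBP1 then raise transcription of chaperone and ERAD genes. Colonic epithelium secretes mucus proteins and depends on this machinery. Poly(A) counts measure RNA levels; sensor activation, XBP1 splicing and protein levels were not measured in these libraries.

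ATF6 and XBP1 act through short promoter elements, so the promoters were read before the levels. The ER stress response element (ERSE) was searched as CCAAT, any 9 bases and CCACG, and ERSE-II as ATTGG, any 1 base and CCACG, on both strands, in the 250 bases before each RefSeq start (GRCh38.p14). A promoter was found for 35 of the 38 genes. ERSE was present in 7 of the 35 (20%), namely XBP1, HSPA5, HSP90B1, CALR, CANX, CRELD2 and ERO1B, against 0.0806% of 27305 promoters. ERSE-II was present in 3 of the 35 (8.57%), namely HYOU1, SDF2L1 and HERPUD1, against 0.0513% of all promoters. A match is a description of letters and not a measured binding site. The elements are named for the ER stress response, so a higher share here than in all promoters is not an independent finding. The 6 windows of 100 bases below belong to genes described below. They are printed 5′ to 3′ on the strand of the gene, contain no GENCODE 29 exon bases, and carry the matched element in capitals, which reads as its reverse complement where the element lies on the opposite strand.
HSPA5, chr9:125241351-125241450, minus strand: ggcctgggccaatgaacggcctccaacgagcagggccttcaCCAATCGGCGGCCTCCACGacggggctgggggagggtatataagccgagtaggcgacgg
CALR, chr19:12938359-12938458, plus strand: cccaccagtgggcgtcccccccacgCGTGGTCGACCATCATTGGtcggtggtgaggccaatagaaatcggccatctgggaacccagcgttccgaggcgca
CRELD2, chr22:49918513-49918612, plus strand: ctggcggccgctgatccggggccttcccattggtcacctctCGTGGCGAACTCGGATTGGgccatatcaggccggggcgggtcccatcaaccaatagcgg
ERO1B, chr1:236282109-236282208, minus strand: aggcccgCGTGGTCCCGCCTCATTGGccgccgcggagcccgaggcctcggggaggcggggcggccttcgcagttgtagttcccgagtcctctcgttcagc
HYOU1, chr11:119057230-119057329, minus strand: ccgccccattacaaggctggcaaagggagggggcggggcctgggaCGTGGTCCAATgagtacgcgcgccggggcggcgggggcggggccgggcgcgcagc
SDF2L1, chr22:21642069-21642168, plus strand: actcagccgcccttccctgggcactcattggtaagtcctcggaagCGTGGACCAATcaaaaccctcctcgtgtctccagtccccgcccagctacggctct

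The HSPA5 element lay close to the start, at 66 bases before it, and that of ERO1B lay at 243 bases before it. Among the other genes with a match, XBP1 carried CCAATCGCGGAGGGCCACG, CANX carried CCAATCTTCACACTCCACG and HERPUD1 carried ATTGGGCCACG. HSP90B1 held a pair of elements, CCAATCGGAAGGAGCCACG and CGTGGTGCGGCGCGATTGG, the second on the opposite strand. HYOU1 also held a pair, both reading CGTGGTCCAAT, at 185 and 79 bases before the start, of which the window shows the nearer. Genes with an element did not all have the same outcome. Averaged over both guides, 4 of these 10 genes were higher and 1 was lower than sgC, with a median log2 fold change of 0.14. Of the 25 genes with neither element, 7 were higher and 6 lower, with a median of -0.00. Of all genes tested, 18.6% were higher and 14.6% lower.

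Library facts that touch the results come first. ZNF692 RNA was not lower in the libraries labelled knockout. It stood at 7.01, 6.32 and 6.18 CPM (counts scaled by TMM-adjusted library totals) in sgC, at 9.64, 9.82 and 11.5 in sgZ1, and at 7.92, 8.08 and 6.29 in sgZ3. Small insertions or deletions need not lower RNA, so the labels are not checked by it, and directions below hold between libraries as labelled. The epithelial marker EPCAM was present in every library, at 1102 to 1273 CPM in sgC, 959 to 1025 in sgZ1 and 1487 to 1555 in sgZ3, and these groups did not overlap. The summed level of 16 epithelial markers was 9801 to 10914 CPM in sgC, 9385 to 10348 in sgZ1 and 11838 to 12822 in sgZ3. Of the 15 tested, 7 were lower and none higher with sgZ1, 5 were higher and 1 lower with sgZ3, and 10 were higher and none lower in sgZ3 against sgZ1. Plasma cell markers summed to 145 to 163 CPM in sgC, 160 to 189 in sgZ1 and 269 to 284 in sgZ3, of which SDC1, a gene that epithelium also expresses, made up 264 to 279 in sgZ3. A list of 10 genes of culture and dissociation stress, such as FOS and JUN, had 7 higher and none lower with sgZ1 (median log2 fold change 0.51), 3 higher and 2 lower with sgZ3, and 4 lower in sgZ3 against sgZ1. Beside the epithelial and stress lists, 15.5% of all genes were higher and 10.3% lower with sgZ1. With sgZ3 these shares were 19.2% and 17.1%, and in sgZ3 against sgZ1 12.8% and 15.8%. The part of these marker and stress-gene differences in the results was not tested. A pair of libraries stood apart in mesenchymal markers: sgZ1 replicate 2 had 22.9 CPM of VIM, sgZ3 replicate 3 had 21.2, and the others at most 1.22. The summed level of the 18 mesenchymal markers was 90.7 to 108 CPM in sgC, 118 to 239 in sgZ1 and 113 to 214 in sgZ3. In the same pair of libraries SPARC was 64.3 and 66.8 CPM and COL1A1 12.2 and 15.2, against at most 5.91 and 1.40 elsewhere, while DCN had at most 2 counts in any library. The part of these markers was not tested directly, and counts without both libraries are given beside the results. In bulk samples, fewer cells of a type and less RNA per cell cannot be told apart.

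Short genes and long genes were shifted against each other between libraries. In sgZ3 replicates 1 and 2 the shortest 25% of all genes lay 0.148 and 0.153 above the mean library on the log2(CPM + 0.5) scale, and the longest 25% lay at -0.204 and -0.191. In sgZ3 replicate 3 these values were -0.0403 and 0.0214, nearer to the control libraries. Across the 38 genes, Spearman's rho between the log2 fold change and exon length was -0.48 for sgZ3 and -0.41 for sgZ1, against -0.30 and -0.12 across 14616 genes. With GC content it was 0.39 for sgZ3 and 0.50 for sgZ1 across the 38 genes, against 0.20 and 0.29. These are descriptions across genes that share the same libraries. Sensor genes had a median exon length of 7890 bases and chaperone genes one of 4695. For this reason the counts of the 38 genes called, and those of all genes, were recomputed with offsets for gene length and GC content. Counts by promoter element, counts of genes without overlap between libraries and counts of the other gene lists were not recomputed.

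**Figure D1:**
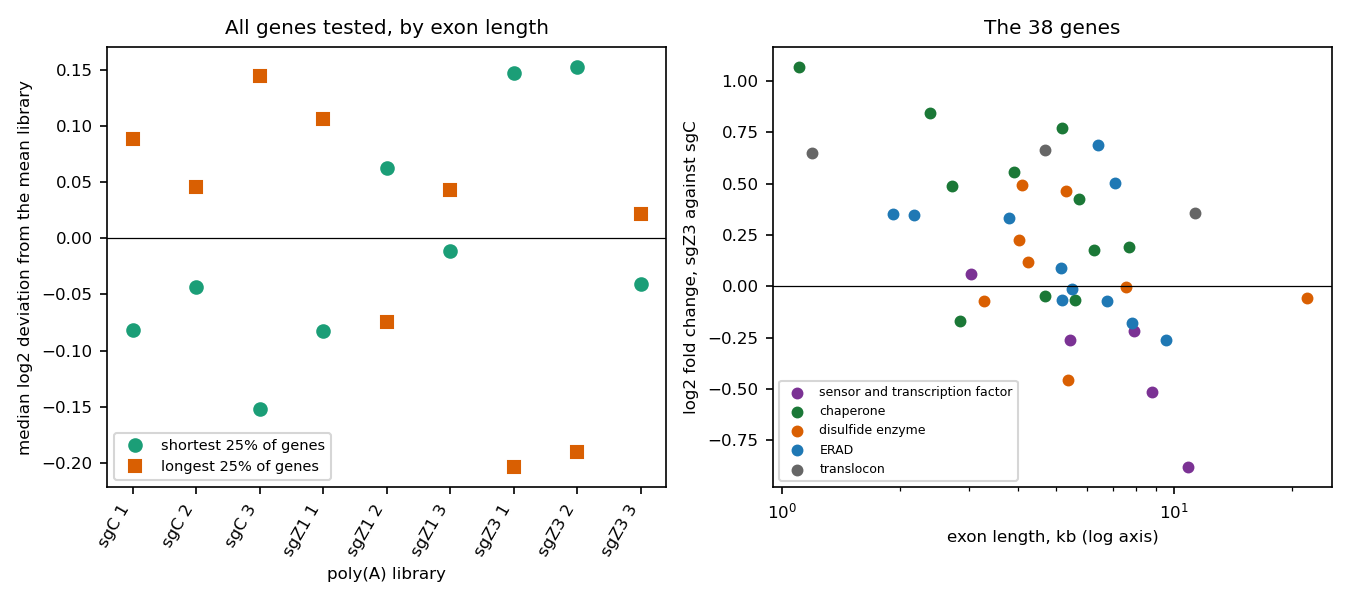
Left, the median log2 deviation of the shortest and longest 25% of all genes from the mean library, for each poly(A) library; right, the log2 fold change of sgZ3 against sgC for each of the 38 genes against its exon length in kb on a log axis, coloured by role. In sgZ3 replicates 1 and 2 the shortest 25% lies at 0.148 and 0.153 and the longest at -0.204 and -0.191, while replicate 3 lies near the control libraries.

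Over both guides together, chaperone and translocon genes were mostly called higher, and sensor genes lower. Averaged over both guides, 12 of the 38 genes rose and 7 fell against sgC (edgeR quasi-likelihood test, Benjamini-Hochberg adjusted p under 0.05). That is 50% of the genes, where 33.2% of all genes tested were called, 18.6% higher and 14.6% lower. The median log2 fold change of the 38 genes was 0.01, equal to that of all genes. By role, the medians were -0.34 for sensors, 0.29 for chaperones and 0.43 for the translocon. Those of disulfide enzymes and ERAD genes were -0.02 and -0.004. Chaperones had 6 of 11 higher and 1 lower, the translocon 2 of 3 higher, disulfide enzymes 2 of 8 higher and 1 lower, ERAD genes 2 of 11 higher and 1 lower, and sensors 4 of 5 lower with none higher. With sgZ1 alone, 2 of 11 chaperones were higher and 1 lower, 0 of 3 translocon genes were called, and 2 of 5 sensors were lower. With sgZ3 alone, 6 of 11 chaperones and 3 of 3 translocon genes were higher, and 2 of 5 sensors were lower. No sensor was called lower with each guide, and the sensor calls over both guides were fragile, as described below.

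The guides gave different counts. With sgZ1, 3 genes rose and 9 fell, against a background of 25.8% of genes called, 15.5% higher and 10.3% lower; the 38 genes had a median of -0.06 and all genes one of 0.01. With sgZ3, 14 rose and 3 fell, against a background of 36.3%, 19.2% higher and 17.1% lower; the median was 0.15, and that of all genes was -0.02. Compared directly, sgZ3 was higher than sgZ1 in 18 genes and lower in 1, against a background of 28.6%, 12.8% higher and 15.8% lower. The sgZ1 and sgZ3 libraries did not overlap in 20 of the 38 genes (52.6%), a pattern found in 35.5% of all genes. The comparisons with sgC share the control libraries.
Without the pair of libraries with high VIM, 12 genes were higher and 12 lower over both guides, with 6 higher and 10 lower for sgZ1 and 15 higher and 13 lower for sgZ3. Far more of all genes were then called as well, with 23.1% higher and 26.6% lower over both guides, 22% and 17.5% for sgZ1, and 23.9% and 31.3% for sgZ3. Scaling by library totals alone shifted the median of all genes for sgZ3 to -0.17, and 7 of the 38 genes were then lower with sgZ3. With length and GC offsets, 13 genes were higher and 5 lower over both guides. Of the 12 higher calls without offsets 10 remained, and of the 7 lower calls 5. For sgZ1 the offsets gave 3 higher and 7 lower, and for sgZ3 17 and 3. Of 14616 genes, 3020 were then higher and 2260 lower over both guides, 2605 and 1910 for sgZ1, and 3202 and 2568 for sgZ3. Over both guides 7 of 11 chaperones were then higher and 1 lower, and 3 of 5 sensors were lower.

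**Figure D2:**
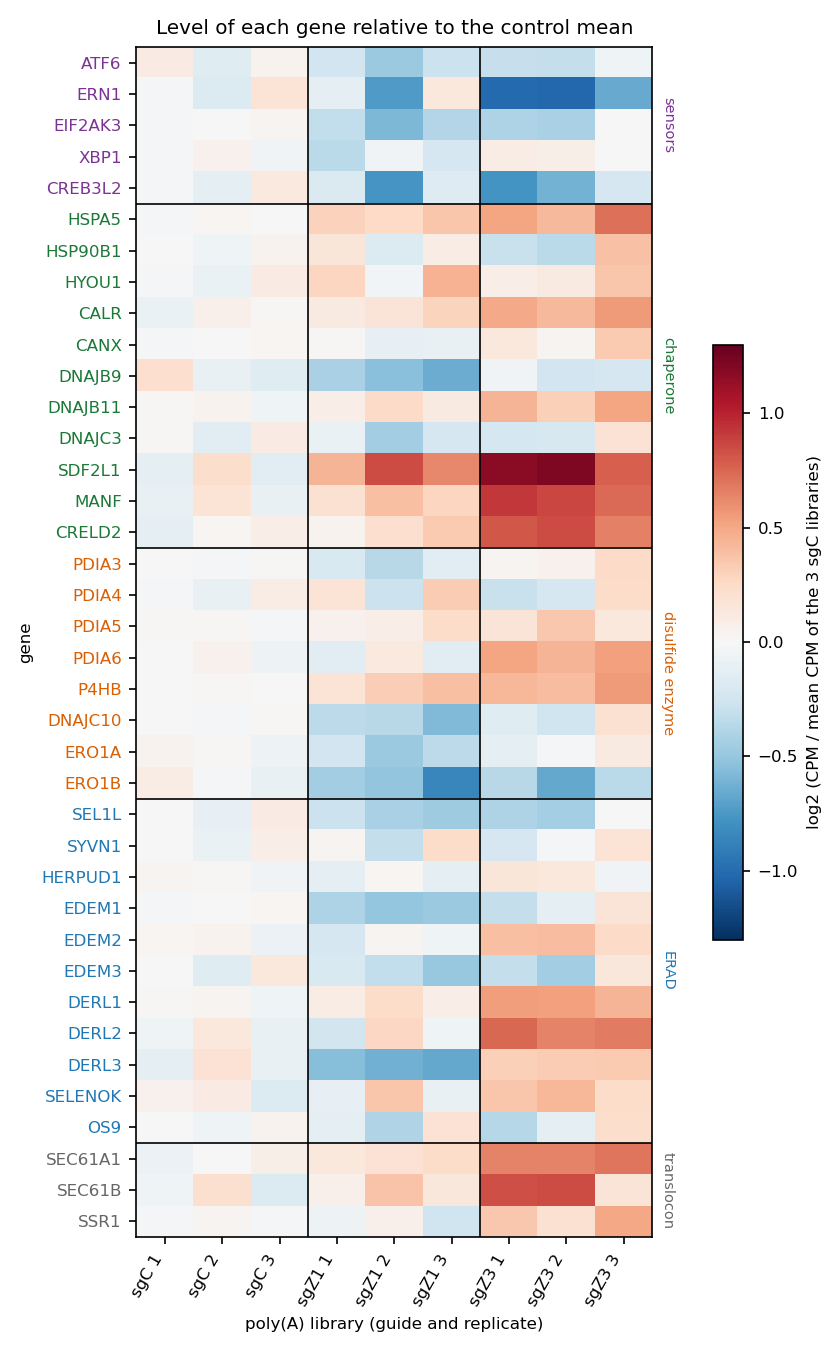
Colour shows the log2 ratio of each gene's CPM in each library to the mean CPM of the 3 sgC libraries, for the 38 genes grouped by role. HSPA5, SDF2L1, MANF, CRELD2 and SEC61A1 are above the control mean in all 6 guide libraries, while ERO1B and CREB3L2 are below it in all 6.

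In 9 genes all 6 guide libraries lay above all sgC libraries, 23.7% of the genes against 11.9% of all genes. They were HSPA5, CALR, DNAJB11, SDF2L1, MANF, PDIA5, P4HB, DERL1 and SEC61A1. CREB3L2 and ERO1B had all 6 below, 5.26% of the genes against 11.5% of all genes. HSPA5, SDF2L1 and P4HB were called higher with each guide (7.89%, background 6.65%), and ERO1B was called lower with each (2.63%, background 4.95%).

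Among the sensors, ERN1 encodes IRE1, the kinase and endoribonuclease that splices XBP1 RNA. It was measured at 10.7, 9.64 and 12.3 CPM in sgC, at 10.0, 6.51 and 12.0 in sgZ1, and at 5.41, 5.37 and 6.90 in sgZ3. All sgZ3 libraries lay below all sgC libraries, while sgZ1 overlapped both groups. The log2 fold change of sgZ3 was -0.88 ± 0.21 (SE, adjusted p = 0.0078, edgeR), the largest fall of the 38 genes, and that of sgZ1 was -0.20 ± 0.20 (adjusted p = 0.50, edgeR). ERN1 lies at chr17:64039142-64130819 on the minus strand (GRCh38).

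The calls of the other sensors were fragile. ATF6, the sensor that is cleaved in the Golgi to release a transcription factor, was 116, 96.7 and 111 CPM in sgC, 91.0, 77.1 and 88.6 in sgZ1, and 87.6, 87.0 and 104 in sgZ3. EIF2AK3, which encodes the eIF2α kinase PERK, was 15.5, 15.7 and 16.2 CPM in sgC, 12.7, 10.6 and 12.1 in sgZ1, and 11.9, 11.8 and 15.7 in sgZ3. For both genes the sgZ1 libraries lay below the controls, and sgZ3 replicate 3 lay within or near the control range. Their log2 fold changes with sgZ1 were -0.33 ± 0.11 and -0.42 ± 0.13 (SE, adjusted p = 0.042 and 0.036, edgeR). CREB3L2, a relative of ATF6 that is also released by cleavage, was 84.9, 79.5 and 94.5 CPM in sgC, 75.7, 50.8 and 76.8 in sgZ1, and 50.4, 56.3 and 74.4 in sgZ3, and fell with sgZ3 by 0.51 ± 0.17 on the log2 scale (SE, adjusted p = 0.035, edgeR). The CREB3L2 call with sgZ3 was lost without any 1 sgC library or sgZ3 replicate 1 or 2 (0.0511 to 0.136).
Over both guides, the calls of ATF6, ERN1, EIF2AK3 and CREB3L2 were each lost without sgC replicate 1 (adjusted p = 0.193, 0.0985, 0.108 and 0.114, edgeR), without sgC replicate 3 (0.146, 0.155, 0.131 and 0.165), and without sgZ3 replicate 1 or 2 (0.0621 to 0.0901). The sgZ1 calls of ATF6 and EIF2AK3 were lost without any 1 of sgC replicates 1 or 3 or sgZ1 replicates 2 or 3 (0.0726 to 0.171). With length and GC offsets, 3 of the 5 sensors remained lower, and ATF6 was not (adjusted p = 0.308, edgeR). XBP1, the transcription factor whose RNA is spliced by IRE1, was 359 to 386 CPM in sgC, 290 to 359 in sgZ1 and 372 to 396 in sgZ3, and no comparison called it; total XBP1 counts do not separate its spliced form.

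HSPA5 encodes BiP, the main Hsp70 chaperone of the ER and the protein that holds the sensors inactive. Its level was 930, 957 and 942 CPM in sgC, 1162, 1130 and 1215 in sgZ1, and 1350, 1267 and 1546 in sgZ3. The groups did not overlap, and sgZ3 lay highest. The log2 fold change was 0.31 ± 0.09 with sgZ1 and 0.56 ± 0.09 with sgZ3 (SE, adjusted p = 0.020 and 0.00092, edgeR). The sgZ1 call was lost without any 1 of sgC replicates 1, 2 or 3 or sgZ1 replicate 3 (adjusted p = 0.09, 0.0562, 0.0691 and 0.0653, edgeR), and the sgZ3 call was held under every alternative. HSPA5 lies at chr9:125234853-125241330 on the minus strand.

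SDF2L1, a partner of the ER DnaJ proteins that assists BiP, showed the largest rise among the 38 genes. It was 76.8, 98.2 and 75.6 CPM in sgC, 113, 150 and 128 in sgZ1, and 188, 194 and 144 in sgZ3. Every guide library exceeded every control library, and 1 sgZ3 library fell within the sgZ1 range. Its log2 fold change was 0.64 ± 0.15 with sgZ1 and 1.07 ± 0.15 with sgZ3 (SE, adjusted p = 0.0071 and 0.00051, edgeR), and both calls were held under every alternative. At 1099 bases it has the shortest exon length among the chaperone genes.

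MANF and CRELD2 encode luminal and secreted proteins that are induced by ER stress. MANF was 104, 127 and 104 CPM in sgC, 128, 147 and 136 in sgZ1, and 212, 204 and 186 in sgZ3. CRELD2 was 33.4, 36.8 and 38.4 CPM in sgC, 37.3, 42.1 and 45.9 in sgZ1, and 63.5, 65.0 and 56.8 in sgZ3. For both genes the sgZ3 libraries stood clear of all others. With sgZ3, MANF rose by 0.84 ± 0.10 and CRELD2 by 0.77 ± 0.11 on the log2 scale (SE, adjusted p = 0.00027 and 0.00051, edgeR). With sgZ1 the values were 0.29 ± 0.10 and 0.20 ± 0.11 (adjusted p = 0.054 and 0.18, edgeR), and the guides differed by 0.55 and 0.57. CRELD2 shares exon bases with ALG12 on the opposite strand, which also rose with sgZ3 (log2 fold change 0.89); the strand setting of the counting is not given in the sources used here, so reads of these genes cannot be told apart.

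**Figure D3:**
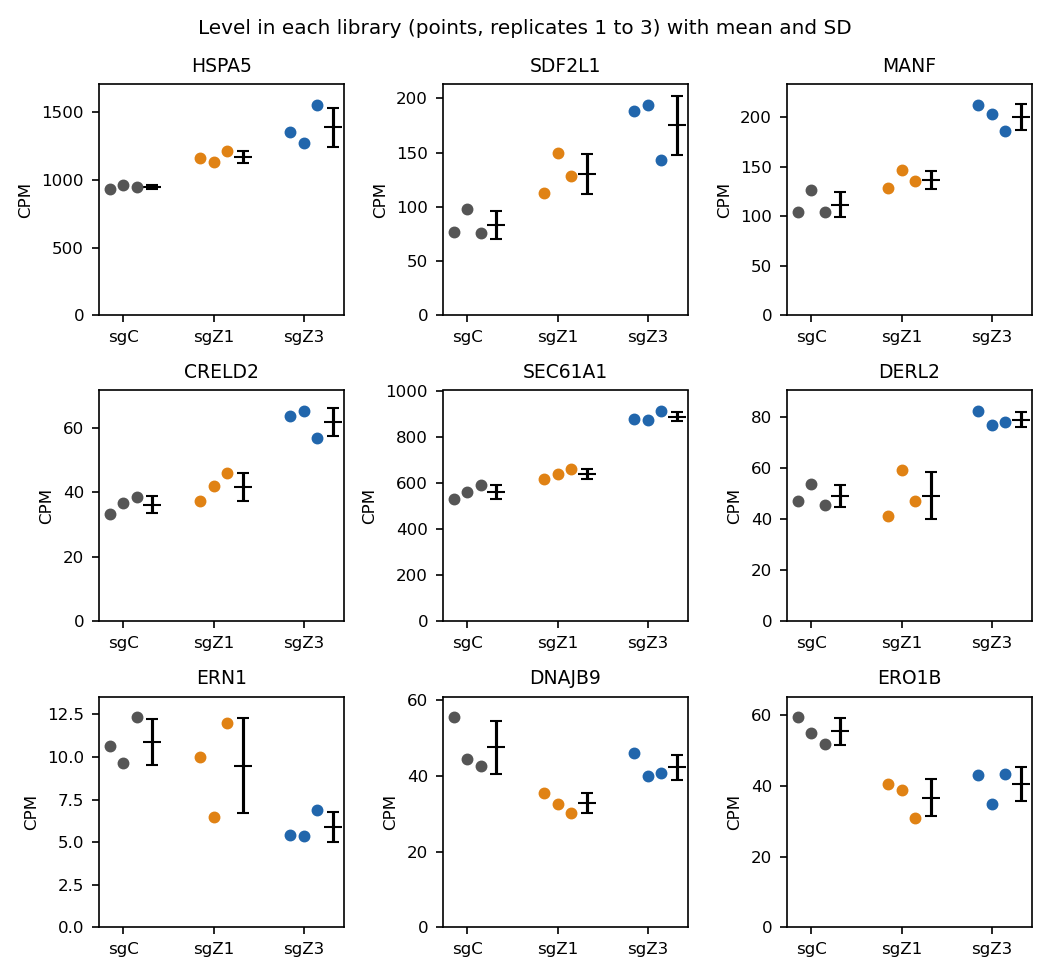
CPM of 9 genes in each library, with the mean and SD of each group of 3 beside the points. MANF lies at 186 to 212 CPM and CRELD2 at 56.8 to 65.0 CPM in sgZ3, while ERN1 lies at 5.37 to 6.90 CPM in sgZ3 against 9.64 to 12.3 in sgC.

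The lectin chaperones bind sugars on folding glycoproteins. CALR, the soluble one, was 1107, 1226 and 1183 CPM in sgC, 1270, 1319 and 1434 in sgZ1, and 1647, 1568 and 1723 in sgZ3. The groups did not overlap, and its log2 fold change with sgZ3 was 0.49 ± 0.08 (SE, adjusted p = 0.0013, edgeR). The CALR call over both guides was lost with length and GC offsets (adjusted p = 0.0827, edgeR). CANX, its membrane-bound relative, was not called in any comparison (sgZ3 log2 fold change 0.18). Per kilobase of exon, CALR had the highest level of the 38 genes in sgC, at 432 CPM per kb, followed by CANX at 279 and HSPA5 at 241.

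The DnaJ cochaperones of BiP went in different directions. DNAJB11 rose with sgZ3, from 115, 118 and 110 CPM in sgC to 156, 141 and 163, a log2 fold change of 0.42 ± 0.09 (SE, adjusted p = 0.0044, edgeR). DNAJB9, which also represses IRE1, was 55.5, 44.6 and 42.6 CPM in sgC, 35.6, 32.7 and 30.4 in sgZ1, and 46.1, 39.9 and 40.9 in sgZ3. It was the chaperone gene that fell, with sgZ1, by 0.53 ± 0.12 on the log2 scale (SE, adjusted p = 0.0063, edgeR). The remaining chaperones, HSP90B1 (GRP94), HYOU1 and DNAJC3, were not called in any comparison. HYOU1, a chaperone of the Hsp110 type, was 327, 314 and 358 CPM in sgC, 404, 325 and 454 in sgZ1, and 353, 360 and 428 in sgZ3, and its groups overlapped. HSP90B1 was 699 to 751 CPM in sgC and 569, 593 and 947 in the sgZ3 libraries, a spread between replicates wider than the difference between groups.

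Disulfide enzymes split by gene. P4HB, the archetypal protein disulfide isomerase, was 794, 804 and 796 CPM in sgC, 902, 993 and 1047 in sgZ1, and 1078, 1052 and 1174 in sgZ3. Every guide library was above every control, with log2 fold changes of 0.30 ± 0.08 and 0.46 ± 0.08 (SE, adjusted p = 0.020 and 0.0018, edgeR). The sgZ1 call was lost without any 1 of the sgC replicates or without sgZ1 replicate 3 (adjusted p 0.0599 to 0.0841, edgeR). PDIA6, an isomerase that also acts on IRE1 and PERK, rose with sgZ3 alone among the single-guide comparisons, from 737, 764 and 702 CPM in sgC to 1048, 994 and 1060. Its sgZ1 libraries, at 662, 801 and 666, overlapped the controls, and the guides differed by 0.54 ± 0.09 on the log2 scale (SE, adjusted p = 0.00099, edgeR).

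Of the oxidases that recharge these isomerases, ERO1B fell with each guide, and ERO1A was called lower with sgZ1 and not with sgZ3 (log2 fold change -0.00, adjusted p = 0.98, edgeR). ERO1B was 59.4, 55.1 and 52.0 CPM in sgC, 40.6, 38.8 and 30.9 in sgZ1, and 43.1, 34.9 and 43.4 in sgZ3. No guide library reached the control range. It fell by 0.59 ± 0.12 with sgZ1 and 0.45 ± 0.13 with sgZ3 on the log2 scale (SE, adjusted p = 0.0046 and 0.015, edgeR); the sgZ3 call was lost without sgC replicate 1 (0.0722) or sgZ3 replicate 2 (0.0801). ERO1A, its paralogue, was 161, 157 and 149 CPM in sgC, 131, 112 and 123 in sgZ1, and 143, 154 and 169 in sgZ3. ERO1A fell with sgZ1 by 0.35 ± 0.10 (adjusted p = 0.017, edgeR), a call lost without sgC replicate 1 (0.0806) or 2 (0.0577) and with length and GC offsets (0.126). DNAJC10, a reductase of ERAD substrates, was 268 to 272 CPM in sgC, 181 to 213 in sgZ1 and 226 to 311 in sgZ3. It fell with sgZ1 by 0.42 ± 0.12 (SE, adjusted p = 0.020, edgeR), and this call was lost with the offsets (0.321) and without any 1 of the sgC replicates or sgZ1 replicate 3 (0.0519 to 0.0838). PDIA3, PDIA4 and PDIA5 were not called against sgC.

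The ERAD genes included families whose members differed. The derlins form part of the channel through which misfolded proteins leave the ER. DERL1 was 129, 131 and 122 CPM in sgC, 136, 151 and 136 in sgZ1, and 186, 184 and 173 in sgZ3. DERL2 was 47.2, 53.9 and 45.7 CPM in sgC, 41.4, 59.1 and 47.1 in sgZ1, and 82.1, 76.7 and 78 in sgZ3. In both, the sgZ3 libraries lay above all others. Their log2 fold changes with sgZ3 were 0.51 ± 0.08 and 0.69 ± 0.13 (SE, adjusted p = 0.0013 and 0.0021, edgeR).

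DERL3, the derlin with the lowest level per kilobase among the 38 genes, was 1.51, 1.87 and 1.54 CPM in sgC, 1.12, 1.06 and 1.03 in sgZ1, and 2.03, 2.06 and 2.08 in sgZ3. The groups did not overlap, with sgZ1 below and sgZ3 above the controls, and the guides differed by 0.94 ± 0.20 on the log2 scale (SE, adjusted p = 0.0041, edgeR). These levels rest on 21 to 41 counts per library. DERL3 shares exon bases with SMARCB1 on the opposite strand, and with the strand setting not given their reads cannot be told apart. Against sgC, the sgZ1 fall of 0.61 ± 0.20 was called (adjusted p = 0.041, edgeR), but that call was lost in all but 1 of the 9 fits that each left out 1 library (highest 0.153). It was also lost with DESeq2 (adjusted p = 0.157) and without the low-count filter (adjusted p = 0.199, edgeR). The sgZ3 value of 0.33 ± 0.19 was not called (adjusted p = 0.18, edgeR).

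The EDEM proteins act on misfolded glycoproteins bound for ERAD. EDEM1 was 30.5, 30.8 and 31.5 CPM in sgC, 23.4, 21.8 and 22.2 in sgZ1, and 25, 28.5 and 34.8 in sgZ3. EDEM2 was 51.7, 52.3 and 48.2 CPM in sgC, 43.6, 52.0 and 48.9 in sgZ1, and 66.7, 66.7 and 60.4 in sgZ3. EDEM1 fell with sgZ1 by 0.46 ± 0.12 (SE, adjusted p = 0.013, edgeR), and EDEM2 rose with sgZ3 by 0.35 ± 0.10 (adjusted p = 0.016, edgeR). The EDEM2 call was lost with length and GC offsets (adjusted p = 0.478, edgeR) and without sgC replicate 1 or 3 or sgZ3 replicate 1 or 2 (0.0525 to 0.0764), and EDEM3 was not called in any comparison.

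SEL1L, the scaffold of the HRD1 ligase complex, fell with sgZ1 by 0.38 ± 0.12 on the log2 scale (SE, adjusted p = 0.037, edgeR), from 123, 115 and 132 CPM in sgC to 102, 92.2 and 89.4. That call was lost without any 1 of the sgC replicates or sgZ1 replicate 2 or 3 (0.0551 to 0.137). SYVN1, the HRD1 ligase itself, HERPUD1, SELENOK and OS9 were not called in any comparison; SYVN1 shares exon bases with FAU on the same strand, so its counts are uncertain. In all, 20 of the 38 genes share exon bases with a gene on the opposite strand, 6 with one on the same strand, and 4 have pseudogenes by name.

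The translocon genes rose with sgZ3. SEC61A1, which forms the pore, was 532, 561 and 592 CPM in sgC, 620, 640 and 663 in sgZ1, and 878, 877 and 912 in sgZ3. The groups did not overlap, and the sgZ3 log2 fold change was 0.66 ± 0.08 (SE, adjusted p = 0.00020, edgeR), held under every alternative. With sgZ1 it was 0.19 ± 0.08 (adjusted p = 0.087, edgeR). SEC61B, a small subunit of the same channel, was 155, 156 and 97.4 CPM in sgZ3, where replicate 3 lay within the control range of 76.4 to 100.2. Its sgZ3 call was lost without sgC replicate 1 (adjusted p = 0.0547, edgeR), sgC replicate 3 (0.0609) or sgZ3 replicate 1 (0.0551) or 2 (0.06). SSR1, a subunit of the translocon-associated complex, was 426 to 440 CPM in sgC, 361 to 452 in sgZ1 and 494 to 612 in sgZ3. It rose with sgZ3 by 0.36 ± 0.10 (SE, adjusted p = 0.018, edgeR), a call lost without sgC replicate 1 (0.0702) or 3 (0.0666) or sgZ3 replicate 1 (0.051).

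**Figure D4:**
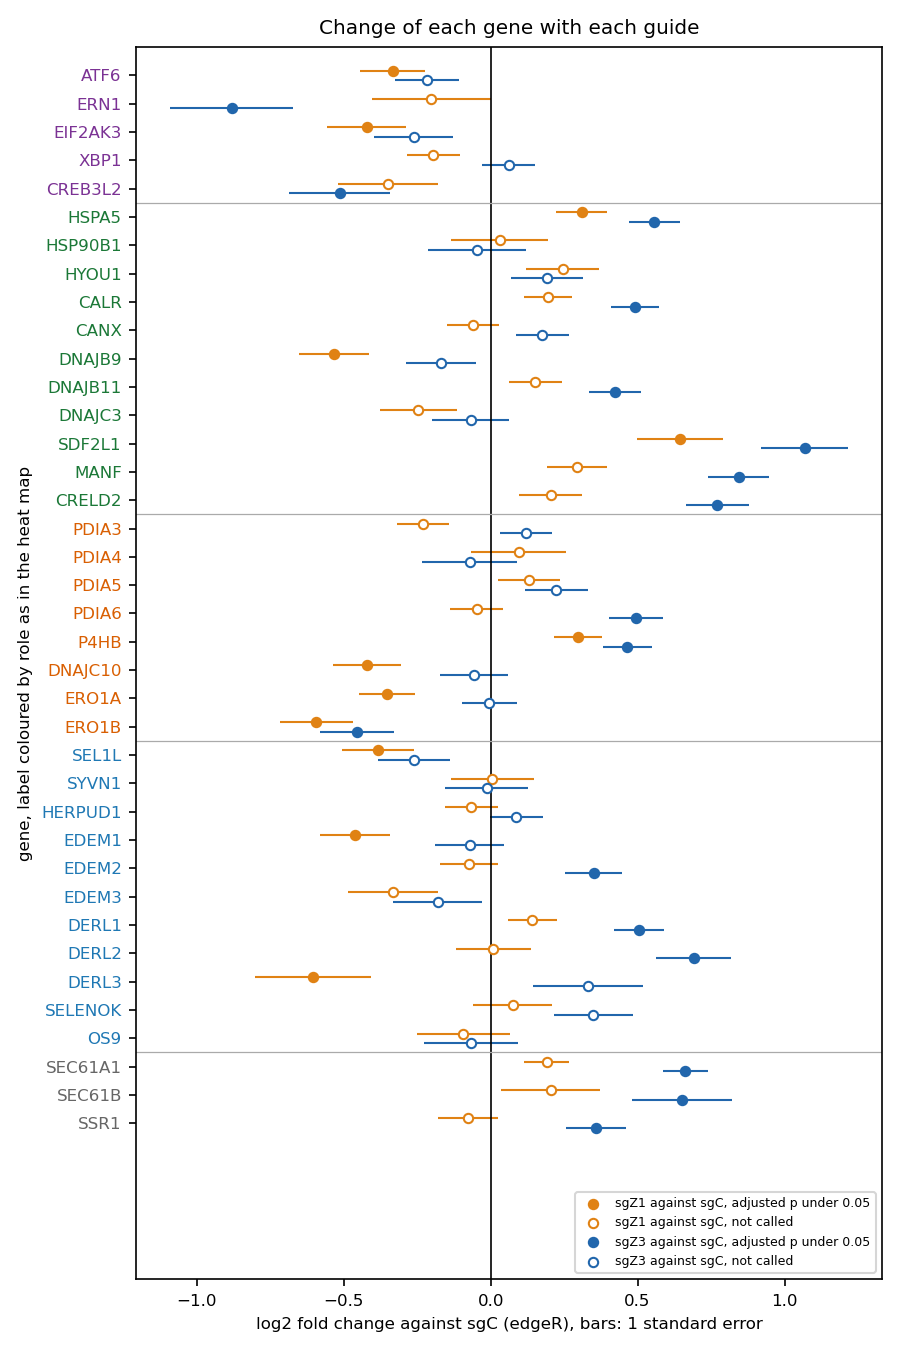
The log2 fold change of each of the 38 genes with each guide against sgC, with bars of 1 standard error and filled points where the adjusted p was under 0.05. HSPA5, SDF2L1 and P4HB are filled to the right with both guides, and ERO1B is filled to the left with both.

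Of the calls over both guides, 7 of 19 were held under every alternative, namely those of HSPA5, SDF2L1, MANF, CRELD2, P4HB, ERO1B and SEC61A1. Of the sgZ1 calls 3 of 12 were held, those of DNAJB9, SDF2L1 and ERO1B. Of the sgZ3 calls 12 of 17 were held, and of the calls between guides 9 of 19. These include ERN1 with sgZ3 and DERL3 between guides, neither of which was tested under the filter of a mean of at least 10 CPM.

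Other ER gene lists place the 38 genes in their pathway. Their counts come from the fit to all 9 libraries, without length and GC offsets. Against sgC, sgZ3 raised 22 of 34 N-glycosylation genes and lowered 1, with a median log2 fold change of 0.43; of all genes, 19.2% rose and 17.1% fell. It raised 15 of 26 further translocon, signal recognition and signal peptidase genes and lowered none, with a median of 0.36. Further chaperones and prolyl isomerases had 10 of 23 higher and none lower, and further ERAD genes 16 of 36 higher and 3 lower. With sgZ1 the same lists had 3, 1, 1 and 3 genes higher and 3, 0, 2 and 7 lower, where 15.5% of all genes were higher and 10.3% lower, so each share of higher genes lay below that of all genes. ALG1, a mannosyltransferase of the lipid-linked sugar, was 61.9 ± 2.18 CPM in sgC and 128 ± 16.7 in sgZ3 (SD, n = 3), and rose by 1.05 ± 0.12 on the log2 scale (SE, edgeR). SSR2, a partner of SSR1, was 138 ± 7.34 CPM in sgC and 244 ± 16.5 in sgZ3, and the signal peptide peptidase HM13 was 81.8 ± 6.43 and 146 ± 1.34.

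Effectors of the PERK branch moved in both directions. Over both guides, 5 of the 17 tested rose and 4 fell, where 18.6% of all genes rose and 14.6% fell. With sgZ3, 3 rose and 6 fell, with a median log2 fold change of -0.28 (all genes: 19.2% and 17.1%). With sgZ1, 3 rose and 1 fell, with a median of 0.07 (all genes: 15.5% and 10.3%). VLDLR, a lipoprotein receptor, was 38.7 ± 1.97 CPM in sgC, 24.5 ± 5.14 with sgZ1 and 13.7 ± 0.883 with sgZ3 (SD, n = 3); it fell with both guides. STC2, a secreted glycoprotein, was 2.46 ± 0.027 CPM in sgC and 28.3 ± 4.23 in sgZ1, but 2.14 ± 1.54 in sgZ3 (SD, n = 3). Its log2 fold change was 3.52 ± 0.34 with sgZ1 and -0.18 ± 0.38 with sgZ3 (SE, adjusted p = 0.75 for sgZ3, edgeR).

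**Figure D5:**
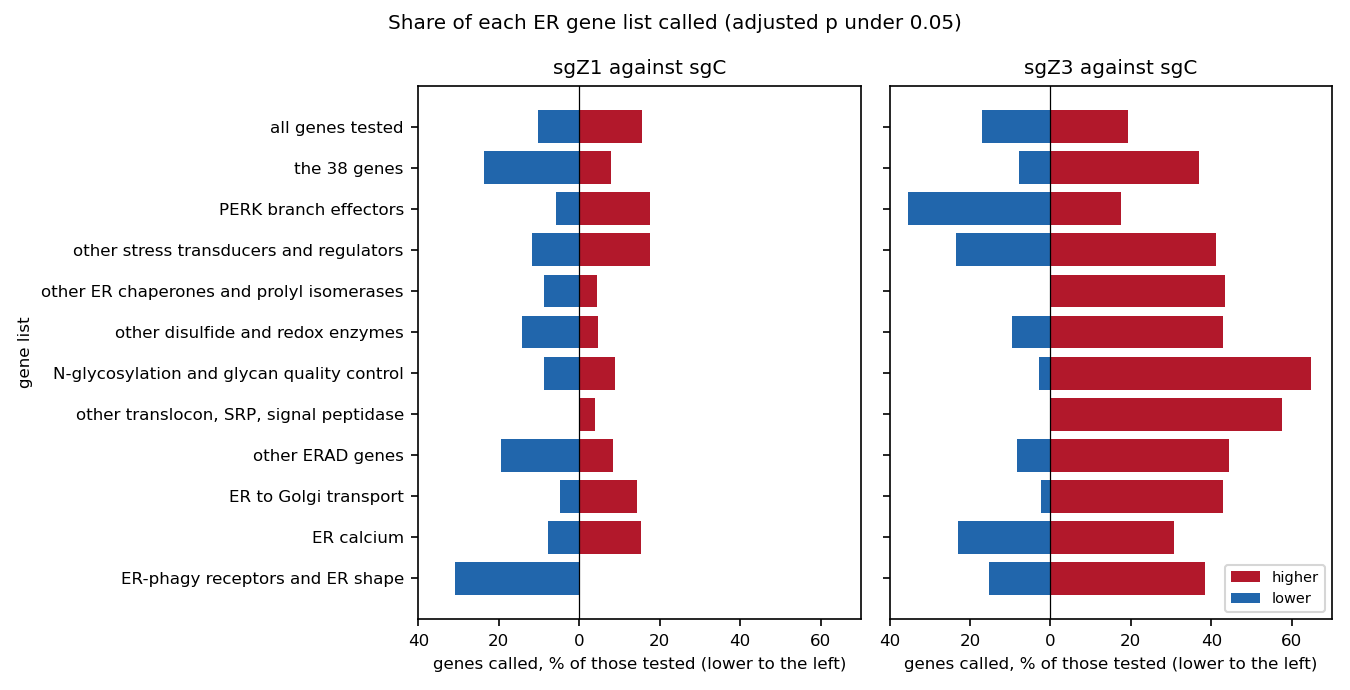
The share of tested genes called higher (right) and lower (left), in percent, for all genes, the 38 genes and 10 further ER lists, with sgZ1 and sgZ3 against sgC. With sgZ3 the N-glycosylation list has 22 of 34 genes higher, and the PERK effector list has more genes lower than higher.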

How the data were processed

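Poly(A) RNA was counted per gene in 9 DLD1 libraries. The deposited table holds whole-number counts made by the authors, not normalized. Tools listed in the submitters' processing notes are STAR 2.5.2b, HTSeq, SAMtools 1.9 and DESeq2, and GRCh38 (hg38) as builds, without roles; annotation release and strand setting were not given in the sources used here. Groups came from the sample titles. For sgC replicate 3 the description points to the ribosomal RNA table, but title, molecule and table column place it here.

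Library totals ran from 16044224 to 24535642 counts. In R 4.3.3, edgeR 4.0.16 (limma 3.58.1) with filterByExpr, TMM factors and a robust quasi-likelihood fit to the 9 libraries, with group as its single term, gave log2 fold changes and Benjamini-Hochberg adjusted p-values over 14732 genes, called under 0.05. Standard errors are the log2 fold change divided by the root of F. CPM values use TMM-scaled totals. All 38 genes were eligible to be named; of each other list up to 4 genes called over both guides, with the smallest adjusted p, were. DESeq2 1.42.0, other scalings and filters, left-out libraries, a replicate block and, added after seeing the data, length and GC offsets were alternatives. The members and lists were chosen with earlier results of these data known. The fit was tested on simulated data. Promoters are RefSeq's (GRCh38.p14), and exons are GENCODE 29's. Images plot values from the same tables.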

Additional observations from a re-analysis of the deposited data

Results flagged for a closer look

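In 19 of the 38 genes the effects of the guides differed by a direct test of sgZ3 against sgZ1 (edgeR quasi-likelihood test, adjusted p under 0.05), a comparison that uses no control library. The log2 difference was positive, higher with sgZ3, in 18. Of all genes, 28.6% were called in this comparison, 12.8% higher and 15.8% lower with sgZ3. Among chaperones it was 0.25 for HSPA5, 0.30 for CALR, 0.36 for DNAJB9, 0.27 for DNAJB11, 0.42 for SDF2L1, 0.55 for MANF and 0.57 for CRELD2. Among disulfide enzymes it was 0.35 for PDIA3, 0.54 for PDIA6, 0.37 for DNAJC10 and 0.35 for ERO1A. Among ERAD genes it was 0.39 for EDEM1, 0.42 for EDEM2, 0.36 for DERL1, 0.68 for DERL2 and 0.94 for DERL3. In the translocon it was 0.47 for SEC61A1 and 0.44 for SSR1. ERN1 was the exception, at -0.68. Several of these calls were fragile. That of HSPA5 was lost under 16 of 20 alternatives, and those of DNAJB11 and DNAJC10 under 13. The calls of DNAJB9, SDF2L1 and EDEM1 were lost under 12, 11 and 10, and that of ERN1 under 7 of 19. Those of CALR and ERO1A were lost under 5 of 20 and that of PDIA3 under 3. Of these differences, those of MANF, CRELD2, PDIA6, EDEM2, DERL1, DERL2, SEC61A1 and SSR1 were called under every alternative. That of DERL3 was called under every alternative that tested it, since the filter of a mean of at least 10 CPM removed it.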

How the results depend on the processing

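Counts of the 38 genes moved most for the genes that fell. Over both guides, 7 were lower; this was 1 at a false discovery rate under 0.01 and 12 without sgZ1 replicate 2 and sgZ3 replicate 3 together. With sgZ1, 3 were higher, against 5 with DESeq2, 1 at 0.01 and 6 without those libraries, and 9 were lower, against 2 at 0.01. With sgZ3, 3 were lower, against 7 with library totals, 1 at 0.01 and 13 without those libraries. For sgZ3 against sgZ1, 18 were higher, against 9 with library totals, 11 of 36 tested with a mean of at least 10 CPM and 9 at 0.01. There 1 gene was lower, ERN1, against 0 at 0.01, 0 with only the compared groups and 7 without those libraries. The CPM filter removed ERN1 and DERL3, so neither was tested under it. Counts over all genes moved too. Over both guides 2151 of 14732 were lower, against 869 at 0.01 and 3967 of 14923 without those libraries. With sgZ3 2521 were lower, against 4135, 1010 and 4676 in the order above. With sgZ1 2286 were higher, against 2367, 1393 and 3289, and 1521 were lower, against 612. Between guides 1882 were higher, against 1148, 1276 of 9252 and 927. Lower there were 2327, against 4464 without those libraries.

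Leaving out 1 library gave 7 to 12 higher and 1 to 11 lower over both guides, 1 to 4 and 3 to 11 with sgZ1, 11 to 15 and 1 to 8 with sgZ3, and 11 to 16 and 0 to 2 for sgZ3 against sgZ1. The number of all genes called moved as well. Over both guides it ran from 2201 of 15180 (without sgC replicate 1, 841 lower) to 6337 of 15021 (without sgZ3 replicate 3, 3034 lower). It ran from 2129 to 4855 with sgZ1, from 3080 to 6796 with sgZ3 and from 2501 to 6153 between guides. For the 38 genes over both guides, the lower count was 1 without sgC replicate 1 or sgZ3 replicate 2, 2 without sgC replicate 3 or sgZ3 replicate 1, 4 without sgC replicate 2 or sgZ1 replicate 3, and 11 without sgZ3 replicate 3. Their higher count was 7 without sgC replicate 3. With sgZ1 the higher count was 1 without sgC replicate 1 or 3 or sgZ1 replicate 3, and the lower count was 3 without sgC replicate 1 and 4 without sgC replicate 2 or 3 or sgZ1 replicate 3. With sgZ3 the lower count was 1 without sgC replicate 1 or sgZ3 replicate 2 and 8 without sgZ3 replicate 3. Between guides the higher count was 11 without sgZ1 replicate 1. Direction reversed in 3 values: DNAJC10 with sgZ3 (0.49) and ERO1A with sgZ3 (0.27) under length and GC offsets, and OS9 for sgZ3 against sgZ1 (-0.31) without both libraries; the cause was not tested. The share of higher calls among all genes called was 56% over both guides, 52.9% with sgZ3 and 44.7% between guides, against 36.6%, 29.6% and 27% with library totals, and 45.9% and 41.5% for the first pair with upper-quartile factors. Deviations from the group means correlated at -0.129 to 0.341 between same-numbered libraries of different groups, and at -0.35 to 0.293 between differently numbered ones. Same-numbered pairs of a guide library and an sgC library were all positive (0.00917 to 0.341). The labels do not say that the numbers pair libraries, and the main fit did not pair them. A replicate block gave 12 higher and 8 lower over both guides, 4 and 9 with sgZ1, 15 and 3 with sgZ3, and 21 and 1 between guides. Calls over all 14732 genes rose with the block as well. Of these, 2973 were higher and 2515 lower over both guides, and 2484 and 1718 with sgZ1. With sgZ3 the counts were 3058 and 2916, and between guides 2268 and 2737. With 3 libraries a group, small differences may not be detectable at this depth and replication.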

Other observations

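Among 42 ER to Golgi transport genes, 16 were higher and 2 lower over both guides, 24 were not called, and the median log2 fold change was 0.10; of all genes, 18.6% were higher and 14.6% lower. With sgZ1 6 of the 42 were higher and 2 lower, with a median of -0.02, where 15.5% of all genes were higher. Over both guides, and against the same shares of all genes, further disulfide and redox enzymes had 5 of 21 higher and 4 lower, further stress transducers 2 of 17 higher and 2 lower, ER calcium genes 3 of 13 higher and 2 lower, and ER-phagy and ER shape genes 3 of 13 higher and 3 lower. SURF4, a cargo receptor for export from the ER, was 514 ± 33.4 CPM in sgC, 649 ± 98.8 with sgZ1 and 988 ± 62.1 with sgZ3 (SD, n = 3), and rose with each guide, by 0.34 ± 0.11 and 0.94 ± 0.11 on the log2 scale (SE, edgeR). TMED9, a cargo adaptor, was 173 ± 12.9, 228 ± 41.3 and 309 ± 6.68 CPM in the same order, and COPZ1, a subunit of the COPI coat, was 154 ± 8.19, 222 ± 20.1 and 232 ± 20.4.

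The ER-phagy receptor CCPG1 fell with both guides, being 16.9 ± 1.64 CPM in sgC, 8.28 ± 2.64 with sgZ1 and 8.04 ± 3.19 with sgZ3 (SD, n = 3), a log2 fold change of -1.03 ± 0.26 and -1.06 ± 0.26 (SE, edgeR). TRAF2, an adaptor recruited by IRE1, was higher with each guide, at 16.2 ± 0.623, 23.8 ± 1.11 and 29.7 ± 1.7 CPM, while ERN2, the epithelial relative of ERN1, was lower, at 92.1 ± 2.54, 60.9 ± 14.3 and 65.5 ± 6.01. SELENOM, an ER selenoprotein, rose with sgZ1 by 1.78 ± 0.21 on the log2 scale (SE, edgeR) and was 6.24 ± 1.31 CPM in sgC, 21.4 ± 1.54 in sgZ1 and 7.56 ± 2.33 in sgZ3.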
